A study of Mus musculus with 6 samples.

Results

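The genes that make cholesterol, export it and store it as droplets were examined in microglia, which are the macrophages that live in brain and spinal cord tissue, isolated from mouse spinal cord. The 42 members were taken by name from a table of 55401 genes. They comprise 21 genes of the sterol synthesis arm, 8 genes of the LXR and efflux arm and 13 genes of fatty acid handling and lipid storage. All 42 were found in the table, and all 42 were among the 16248 genes with enough counts to be tested.

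RNA was sequenced from 6 libraries of untreated mice aged 7 months, 3 libraries per genotype. One genotype was non-transgenic C57BL/6 mice (NTg, replicates 7, 9 and 11). The other was ATXN2-Q33;TDP-43 mice (replicates 8, 10 and 12), heterozygous double mutants with human ATXN2 (allele Q33) knocked in and with human TDP-43. TDP-43 is the protein that forms inclusions in most cases of amyotrophic lateral sclerosis, and ATXN2 is a known modifier of the disease. A library was made from the microglia of 3 pooled spinal cords, 9 animals per genotype, so a library averages over its animals. Cells were taken with beads against CD11b, an integrin that other myeloid cells carry as well. The promoter that drives human TDP-43 and the cells that express it are not given in the sources used here.

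Cells sense cholesterol in the membrane of the endoplasmic reticulum. When sterols are low, the transcription factor SREBP2 is released to the nucleus and switches on the enzymes of the mevalonate and sterol pathway. When oxidised sterols or the synthesis intermediate desmosterol accumulate, the LXR receptors switch on the exporters ABCA1 and ABCG1, and surplus cholesterol is esterified and kept in droplets coated by perilipins. Microglia take up cholesterol-rich myelin debris, and both arms are known to matter for how they dispose of it.

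The promoters of the synthesis genes shared a sequence feature that the choice of members did not use. RefSeq promoter windows (GRCm38.p6, 250 bases before to 50 after a transcription start) were at hand for 31 of the 42 members, in 39 windows because 6 members have more than 1. The letters CCAAT, searched on both strands and known as the core of the binding site of the factor NF-Y, were found in the windows of 16 of 17 synthesis members, 94.1%, with Acat2 the exception. They were found in 8 of 14 members of the efflux and storage arms, 57.1%, and in 11096 of 27025 genes with a window, 41.1%. Among the tested genes the share was 42.8%. The letters CACNCCAC, the core of a known sterol response element, were found in 3 of 17 synthesis members (Hmgcs1, Acat2 and Insig1) and in 1 of 14 others (Acsl1), against 7.12% of all genes with a window. These matches are letters in a window and say nothing of binding in these cells.

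The libraries of 4 members did not overlap between the genotypes, and no window of Ch25h, which is among them, held either set of letters. The stretches below are shown because they hold these letters in front of an early enzyme of the pathway (Hmgcs1) and its master regulator (Srebf2). The stretches also include the other 3 members without overlap (Insig1, Nsdhl and Soat1). They are RefSeq sequence, 5′ to 3′ on the gene's strand, and lie before the gene's start. Capitals mark CCAAT or its reverse complement ATTGG, and in Hmgcs1 also CACCCCAC.
Hmgcs1, chr13:119690102-119690322, + strand: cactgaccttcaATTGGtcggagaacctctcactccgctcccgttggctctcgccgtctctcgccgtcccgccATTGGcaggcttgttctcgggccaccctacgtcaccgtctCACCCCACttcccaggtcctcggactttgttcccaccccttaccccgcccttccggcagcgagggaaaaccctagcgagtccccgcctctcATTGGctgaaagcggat
Nsdhl, chrX:72918400-72918517, + strand: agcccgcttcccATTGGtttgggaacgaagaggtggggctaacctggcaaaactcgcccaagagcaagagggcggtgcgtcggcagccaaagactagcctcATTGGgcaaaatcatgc
Insig1, chr5:28071184-28071212, + strand: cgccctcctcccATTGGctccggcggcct
Srebf2, chr15:82147122-82147150, + strand: cttcgcgcgccgATTGGctaatgcaagcc
Soat1, chr1:156474342-156474370, - strand: gccgcaggaccaCCAATggcatcccggag
The Hmgcs1 stretch holds 3 CCAAT matches and 1 CACNCCAC match, the Nsdhl stretch holds 2 CCAAT matches, and the other stretches hold 1 CCAAT match each. A stretch is part of 1 window, whereas the counts of genes with a match covered the whole of every window. The CACNCCAC match counted for Insig1 lies outside its stretch.

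The libraries held 12553570 to 22854628 counts, of which mitochondrial genes took 4.66% to 5.71%. All 10 microglial marker genes examined, among them P2ry12, Tmem119 and Cx3cr1, were well above the filter, and their summed level was 11135 to 16116 CPM (counts scaled to a common library size) in each library. Other cell types were also present and unequal between libraries of the same genotype. The summed level of 10 oligodendrocyte markers was 183 CPM in NTg replicate 7, 1643 CPM in replicate 9 and 443 CPM in replicate 11. In the double mutants it was 351 CPM in replicate 8, 1132 CPM in replicate 10 and 167 CPM in replicate 12. NTg replicate 9 and double mutant replicate 10 were the highest. The same libraries were the highest for 8 endothelial markers, at 349.9 and 360.1 CPM against 96.0 to 187 CPM in the others, and for 6 markers of oligodendrocyte precursors, at 26.7 and 27.9 CPM against 6.75 to 10.8 CPM. Their microglial sums were the lowest, at 12460 and 11135 CPM. The summed level of 9 neutrophil markers was 608, 162 and 383 CPM in the NTg libraries and 1589, 1015 and 53.3 CPM in the double mutant libraries, highest in replicates 8 and 10. Those replicates were also the highest for 7 monocyte markers, at 270.4 and 259 CPM against 90.8 to 156 CPM in the others. No gene of these lists was at 0 in every library, and their ranges overlapped between the genotypes.

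The levels of the members, set side by side per kilobase of exon, spanned more than 2 orders of magnitude. The highest was Mylip, an LXR target that encodes a ubiquitin ligase, with a mean of 133 CPM per kilobase. Abca1 followed at 34.9, Insig1 at 27.4 and Nr1h2 at 21.6 CPM per kilobase. The lowest were Lss and Hsd17b7 at 0.718 and Nr1h3 at 0.508 CPM per kilobase. The place of Lss rests on its exon length of 10787 bases, against 5104 for Hsd17b7. Before that division Lss was at 6.12 to 9.70 CPM and Hsd17b7 at 1.97 to 4.90 CPM. The 18 synthesis enzymes lay low, with a median of 2.11 and a maximum of 10.1 CPM per kilobase for Hmgcs1, whereas the 8 LXR and efflux members had a median of 8.14 CPM per kilobase.

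**Figure D1:**
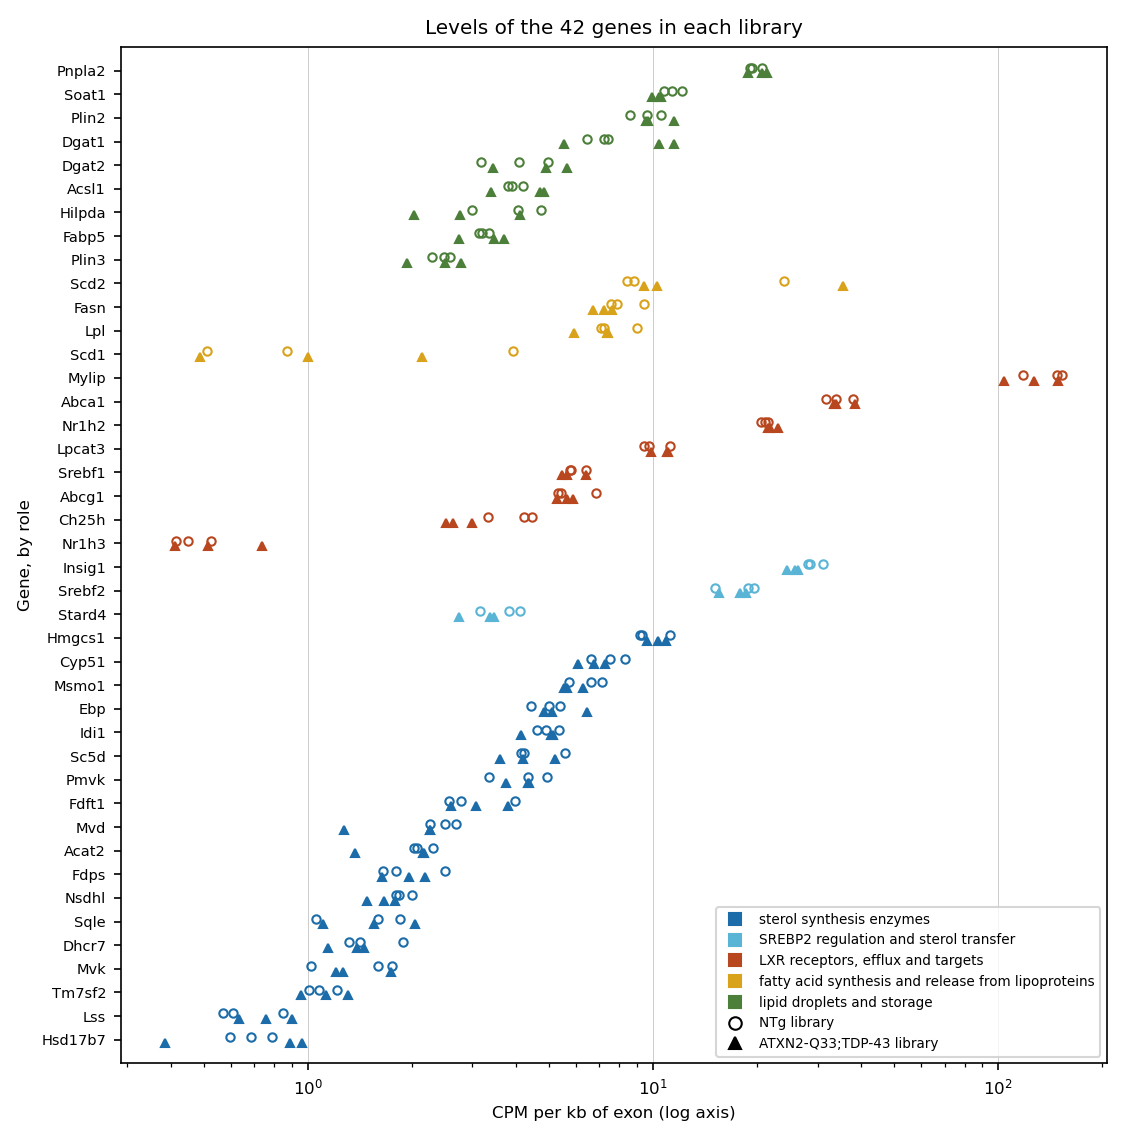
Level of each of the 42 genes in CPM per kilobase of exon, on a log axis, in each library by role, with circles for NTg and triangles for ATXN2-Q33;TDP-43. Mylip is farthest to the right with a mean of 133 and Nr1h3 is among the lowest with a mean of 0.508.

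Within pairs of related genes, the same partner was the higher per kilobase in every library of both genotypes. Nr1h2 (LXRβ) exceeded Nr1h3 (LXRα) by 29.5- to 52.1-fold. Abca1 exceeded Abcg1 by 5.54- to 6.58-fold, Insig1 exceeded Insig2 by 9.99- to 18.3-fold, and Srebf2 exceeded Srebf1 by 2.62- to 3.27-fold. The ratio of Scd2 to Scd1, the desaturases that make oleate and palmitoleate, was the most variable, at 6.11- to 19.3-fold. Nr1h3 was the least covered member, with only 14 to 25 counts in a library, so its ratio carries a large counting error.

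No member of either arm passed the test of the difference between the genotypes. With edgeR (quasi-likelihood fit, Benjamini-Hochberg adjustment over all 16248 genes), 0 of 42 members were called at an adjusted p of 0.05, against 0% of all genes, and the smallest adjusted p among the members was 0.9996. At an unadjusted p under 0.05 there were 2 members, Insig1 and Ch25h, 4.76% of the 42 against 2.26% of all genes. Both had a negative estimate, where 0.862% of all genes had such a p with a negative estimate. DESeq2 called 7 genes in the whole table, 0.0431%, with 0 members among them and 0 members at an unadjusted p under 0.05, and limma voom called 0 genes and 0 members at an unadjusted p under 0.05. Members stayed at 0 calls where other settings called a few genes: 0.0203% of all genes with no filter, 0.437% with a block of neighbouring sample codes, which the labels do not name as pairs, 0.0118% without double mutant replicate 12 and 0.00607% without replicates 9 and 10. With that block 7 members had an unadjusted p under 0.05, 16.7% against 8.62% of all genes. Because these are bulk libraries, fewer cells of a type and less RNA per cell cannot be told apart.

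How closely the differences were bounded varied between members. For 27 of the 42, 64.3%, the 95% interval of the difference lay wholly within 1.5-fold in either direction, against 46.9% of all tested genes. The synthesis arm held 13 such members of 21, the LXR and efflux arm 6 of 8, and the storage arm 8 of 13. The intervals reached a median of 0.489 to either side of the log2 fold change in the synthesis arm, against 0.486 over all tested genes. That median was 0.263 in the LXR and efflux arm and 0.367 in the storage arm. A miss of the threshold does not show that the genotypes were alike, and the intervals state what size of difference remains possible for each gene.

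**Figure D2:**
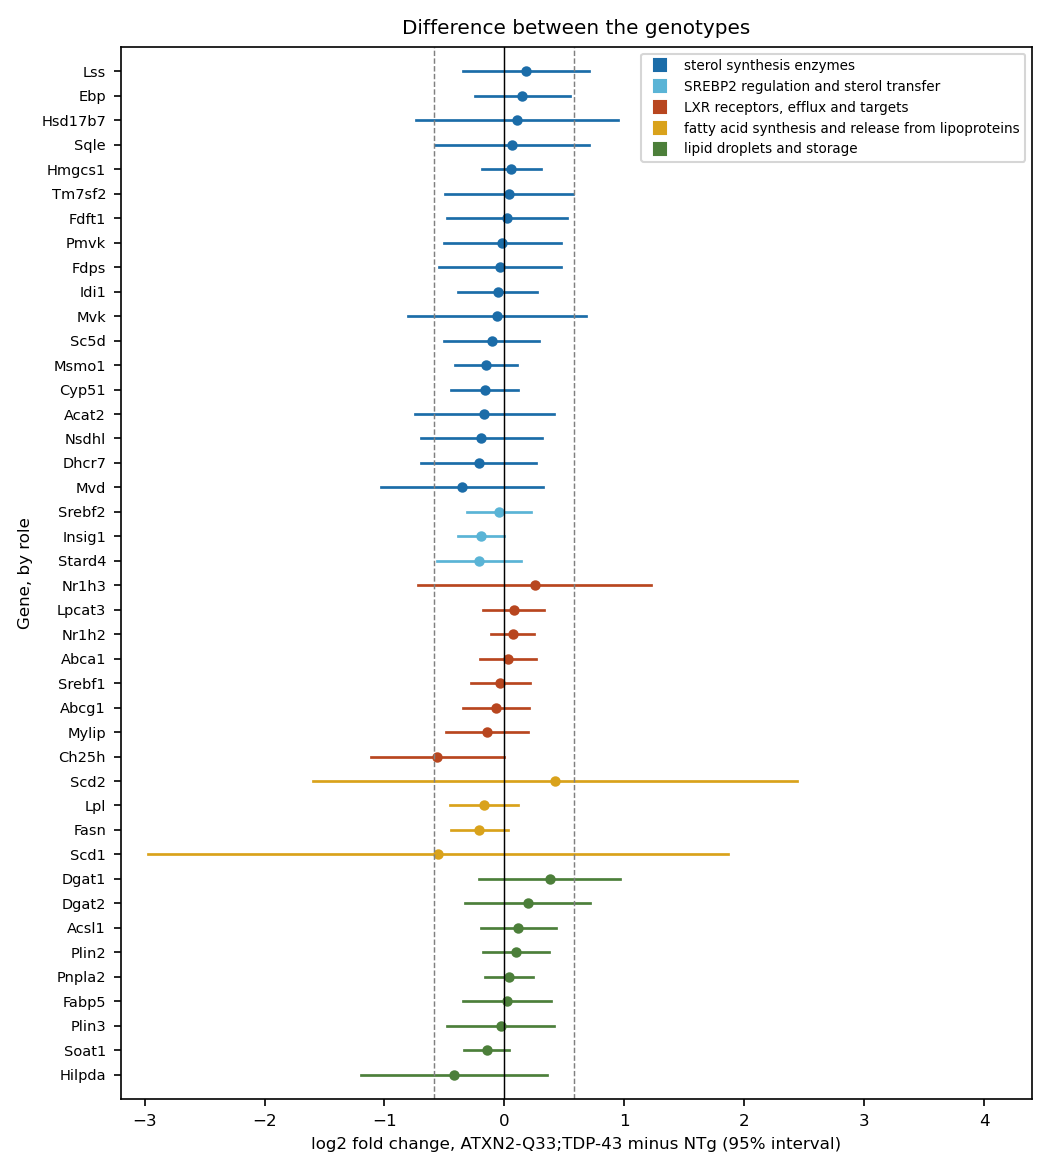
Log2 fold change, double mutant minus NTg, of the 42 genes by role, with 95% intervals from edgeR; dashed lines mark 1.5-fold in either direction. The intervals of Insig1 and Ch25h end just under 0, those of all others include 0, and the widest belong to Scd1 and Scd2.

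The arms as a whole stood close to 0. The median log2 fold change was -0.06 over the 21 synthesis members, of which 14 were negative and 7 positive. It was 0.00 over the 8 LXR and efflux members (4 positive, 4 negative) and 0.03 over the 13 storage members (7 positive, 6 negative). Over all tested genes the median was 0.01, and 48.0% of the estimates were negative. The file header names the alignments of NTg replicates 7 and 9 as combined, and with that as a covariate the synthesis median was 0.01 and the LXR and efflux median -0.05. Combined alignments occur only in the NTg group, so that fit sets the double mutants against 1 NTg library.

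The synthesis arm was set against the other 21 members library by library, as the difference of their mean centred log2(CPM + 0.5). The values were 0.04, 0.02 and 0.00 in NTg replicates 7, 9 and 11 and -0.07, -0.07 and 0.09 in double mutant replicates 8, 10 and 12. Double mutant replicate 12 was the highest of all 6 libraries, so the groups overlapped. The means differed by -0.04. In size this was less than the SD of 0.09 (n = 3) among the double mutant libraries. It was more than the SD of 0.02 (n = 3) among the NTg libraries.

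**Figure D3:**
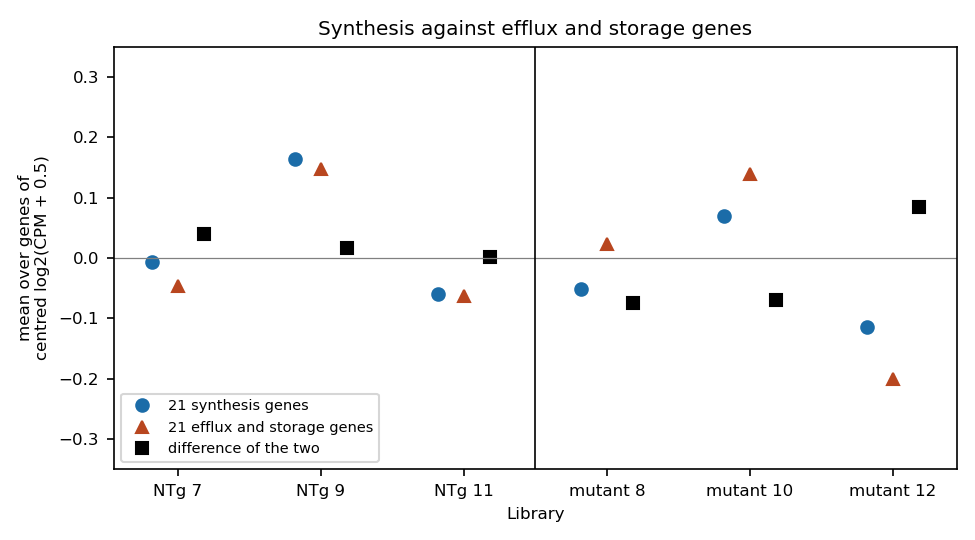
Mean over genes of centred log2(CPM + 0.5) in each library for the 21 synthesis genes (circles), the 21 efflux and storage genes (triangles) and their difference (squares). The difference runs from -0.07 to 0.09, and the highest and lowest values both belong to double mutant libraries.

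Among the regulators of SREBP2, Insig1 came nearest to a difference. Insig1 encodes the anchor that holds the SREBP escort protein SCAP in the endoplasmic reticulum when sterols are plentiful, and it is itself a known SREBP target. Its gene is at chr5:28071363-28078662 on the + strand (mm10). Its level was 87.9, 96.2 and 87.3 CPM in the NTg libraries and 75.7, 81.5 and 79.9 CPM in the double mutant libraries. Every double mutant library lay under every NTg library. The log2 fold change was -0.20 (SE 0.08, 95% interval -0.38 to -0.01) at an unadjusted p of 0.0441 in edgeR's quasi-likelihood test. The exact two-sided permutation test gave p = 0.1, the smallest that 3 against 3 libraries allow. Any gene whose groups do not overlap has that value. The members without such overlap were 4 of 42, or 9.52%, and all were lower in the double mutants, where 3.58% of all tested genes were. In either direction the share of all tested genes was 6.85%. The other such members were Nsdhl, Ch25h and Soat1. In all 4 the lowest NTg library was replicate 11, the only NTg library whose alignment is not named as combined. With combined alignments as a covariate the log2 fold change was -0.14 in Insig1, -0.30 in Ch25h and -0.06 in Soat1. The main values of these members were -0.20, -0.56 and -0.15.

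Srebf2 itself was nearly level. It stood at 136, 141 and 108 CPM in the NTg libraries and 128, 133 and 112 CPM in the double mutant libraries. NTg replicate 11 was the lowest of all 6 and double mutant replicate 12 the next, so the spread ran within both groups. Its log2 fold change was -0.04 (SE 0.12). Stard4, a carrier that moves cholesterol between membranes, was at 23.0, 21.3 and 17.6 CPM in the NTg libraries and 18.8, 19.3 and 15.3 CPM in the double mutant libraries. Its groups overlapped, with a log2 fold change of -0.21 (SE 0.15).

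Of the 18 enzymes of the sterol pathway, 11 had a negative and 7 a positive log2 fold change, with a median of -0.05. Whether they shifted together was not tested. Hmgcs1, which makes the precursor of mevalonate, was at 42.1, 51.4 and 42.7 CPM in the NTg libraries and 47.6, 50.1 and 44.3 CPM in the double mutant libraries. Its groups overlapped, and its log2 fold change was 0.06 (SE 0.11). Sqle, the oxidising enzyme at the entry to the sterol branch, was at 8.86, 10.3 and 5.86 CPM against 8.61, 11.3 and 6.13 CPM. The same pair of libraries, NTg replicate 9 and double mutant replicate 10, was the highest for Sqle, and its log2 fold change was 0.06 (SE 0.29).

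Of the 18 enzymes, the smallest p-values belonged to Msmo1, Cyp51 and Mvd. Msmo1, a sterol C4-methyl oxidase, was at 40.6, 43.9 and 34.995 CPM in the NTg libraries and 34.6, 38.6 and 34.0 CPM in the double mutant libraries. Cyp51, the lanosterol demethylase, was at 33.2, 36.8 and 29.2 CPM in the NTg libraries and 29.7, 32.0 and 26.7 CPM in the double mutant libraries. Both overlapped between the groups, with log2 fold changes of -0.15 (SE 0.11) for Msmo1 and -0.16 (SE 0.12) for Cyp51. Mvd, which makes isopentenyl pyrophosphate, was at 4.19, 5.01 and 4.63 CPM in the NTg libraries and 2.37, 4.21 and 4.21 CPM in the double mutant libraries. Double mutant replicate 8 was the low library, its neighbours just reached NTg replicate 7, and the log2 fold change was -0.35 (SE 0.30), or -0.13 without that library.

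Nsdhl, which removes the C4 carbon groups of sterols, was at 5.23, 5.73 and 5.13 CPM in the NTg libraries and 4.23, 4.75 and 5.09 CPM in the double mutant libraries. The groups did not overlap, though double mutant replicate 12 and NTg replicate 11 were almost level. The log2 fold change was -0.19 (SE 0.22) at an unadjusted p of 0.412 in edgeR. The exact permutation p of 0.1 restates the lack of overlap. The other 12 enzymes (Mvk, Pmvk, Idi1, Fdps, Fdft1, Lss, Dhcr7, Hsd17b7, Ebp, Sc5d, Tm7sf2 and Acat2) had log2 fold changes from -0.22 in Dhcr7 to 0.18 in Lss. Fdps and Tm7sf2, like Srebf1 and Scd2 among the members below, share exon sequence with another gene on their strand, and a read in the shared part was counted for both genes.

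In the LXR arm no receptor or exporter passed the test. Nr1h2, the prevailing LXR in these libraries, was at 69.0, 70.8 and 72.3 CPM in the NTg libraries and 73.1, 77.3 and 72.2 CPM in the double mutant libraries. Replicate 12 was just under NTg replicate 11, so the groups overlapped, and the log2 fold change was 0.07 (SE 0.08). Nr1h3 stayed at 1.04 to 1.85 CPM in every library, with a log2 fold change of 0.25 (SE 0.43) and a wide 95% interval of -0.72 to 1.23. That value was 0.00 without double mutant replicate 8 and 0.44 without replicate 12, and Nr1h3 shares exon sequence with a neighbouring gene model on its strand.

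Abca1, which exports cholesterol to lipid-poor apolipoproteins, was at 328, 352 and 394 CPM in the NTg libraries and 346, 351 and 399 CPM in the double mutant libraries. Replicates 11 and 12, 1 of each group, were the highest. Its log2 fold change was 0.03 (SE 0.10), with a 95% interval of -0.20 to 0.26. Abcg1, which exports cholesterol to lipoprotein particles, was at 38.7, 39.4 and 50.1 CPM in the NTg libraries and 41.2, 38.4 and 42.7 CPM in the double mutant libraries. NTg replicate 11 stood above the rest, and the log2 fold change was -0.07 (SE 0.12).

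Mylip was at 480, 381 and 496 CPM in the NTg libraries and 410, 337 and 482 CPM in the double mutant libraries. Replicates 9 and 10 were the lowest of their groups, and the log2 fold change was -0.14 (SE 0.15). Lpcat3, which remodels phospholipids, and Srebf1, the fatty acid SREBP, stood at 0.08 (SE 0.11) and at -0.04 (SE 0.11) on the log2 fold change scale.

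Ch25h had the most negative estimate of all 42. It encodes the enzyme that makes 25-hydroxycholesterol, an oxysterol that activates LXR and restrains SREBP processing, and it is known to be induced in inflamed macrophages. Its gene is at chr19:34473778-34475164 on the - strand (mm10). Its level was 6.20, 5.86 and 4.63 CPM in the NTg libraries and 4.15, 3.66 and 3.48 CPM in the double mutant libraries, from 54 to 102 counts. The groups did not overlap, and NTg replicate 11 was the closest to the double mutants. The log2 fold change was -0.56 (SE 0.25, 95% interval -1.12 to -0.01) at an unadjusted p of 0.0481 in edgeR. The exact permutation p of 0.1 restates the lack of overlap.

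**Figure D4:**
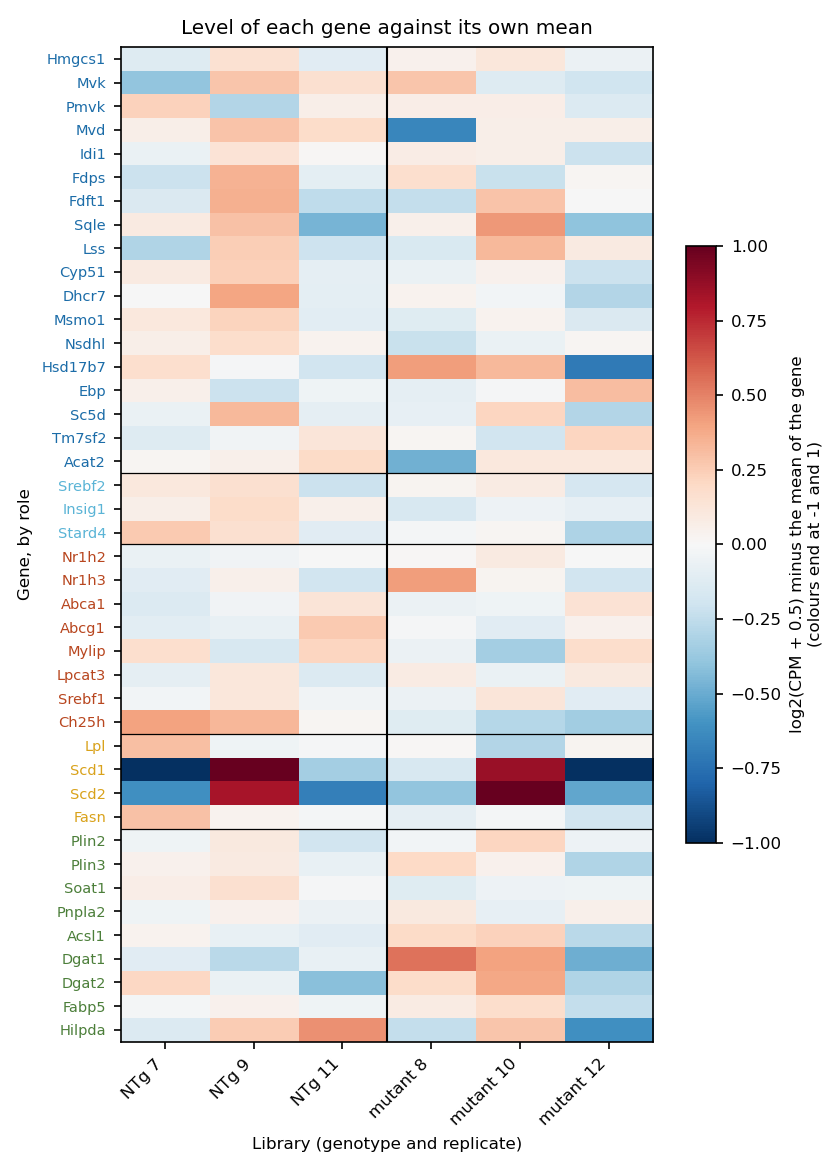
Heat map of log2(CPM + 0.5) minus the gene's own mean for the 42 genes (rows, by role) in the 6 libraries (columns), with red above and blue below the mean and colours ending at -1 and 1. Ch25h is above its mean in the NTg libraries and below it in the double mutants, and Scd1 and Scd2 are reddest in replicates 9 and 10.

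The 4 genes of fatty acid synthesis and release included both a narrow and a very wide spread between libraries. Fasn, fatty acid synthase, was at 103, 86.2 and 82.7 CPM in the NTg libraries and 78.8, 83.1 and 73.3 CPM in the double mutant libraries. The groups overlapped by NTg replicate 11 and double mutant replicate 10, and the log2 fold change was -0.21 (SE 0.11). Lpl, the lipase that frees fatty acids from lipoproteins, was at 94.2, 74.0 and 75.7 CPM in the NTg libraries and 77.0, 62.0 and 77.7 CPM in the double mutant libraries. Its log2 fold change was -0.17 (SE 0.13).

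Scd1 and Scd2 had the widest spread of all 42. Scd2 was at 48.2, 131 and 46.0 CPM in the NTg libraries and 56.1, 194 and 51.5 CPM in the double mutant libraries. Scd1 was at 2.497, 19.2 and 4.27 CPM in the NTg libraries and 4.90, 10.4 and 2.39 CPM in the double mutant libraries. For both genes NTg replicate 9 and double mutant replicate 10, the libraries with the most oligodendrocyte, oligodendrocyte precursor and endothelial markers, were the highest. For Scd2 the log2 fold change was 0.42 (SE 0.77), and it was 1.09 without NTg replicate 9 and -0.49 without double mutant replicate 10. For Scd1 the log2 fold change was -0.55 (SE 0.95), and it was 0.79 without NTg replicate 9 and -1.26 without double mutant replicate 10. The part of RNA from these cell types in the levels was not tested.

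That pair of libraries held the highest 2 levels in 9 of the 42 members, 21.4%, against 14% of all tested genes. The 9 were Plin2, Sc5d, Lss, Srebf1, Hmgcs1, Fdft1, Sqle, Scd2 and Scd1. Double mutant replicates 8 and 10, which held the most neutrophil and monocyte markers, had the highest 2 levels in 5 members, 11.9% against 8.14% of all tested genes. Those were Hsd17b7, Fabp5, Nr1h2, Acsl1 and Dgat1. The shares of the members and of all genes are descriptions with no test.

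**Figure D5:**
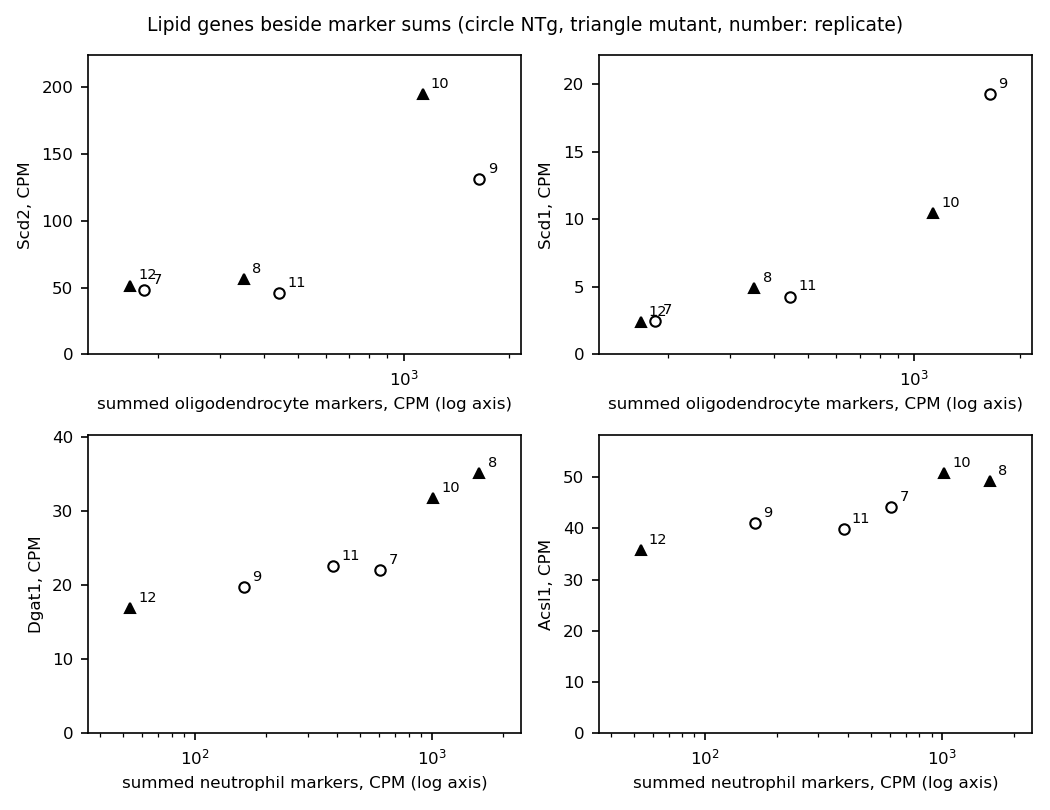
Level of 4 members in CPM against the summed level of oligodendrocyte or neutrophil markers in CPM on a log axis, 1 point per library. Scd2 and Scd1 are highest in replicates 9 and 10, the libraries with 1643 and 1132 CPM of oligodendrocyte markers, and Dgat1 and Acsl1 in replicates 8 and 10, with 1589 and 1015 CPM of neutrophil markers.

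Among the storage genes, Soat1 was lower in every double mutant library. Soat1 (ACAT1) esterifies cholesterol for storage in droplets, and its gene is at chr1:156424525-156474331 on the - strand (mm10). Its level was 111, 119 and 105 CPM in the NTg libraries and 97.3, 102 and 103 CPM in the double mutant libraries. The groups did not overlap, with NTg replicate 11 just above double mutant replicate 12. The log2 fold change was -0.15 (SE 0.08, 95% interval -0.34 to 0.04) at an unadjusted p of 0.113 in edgeR. The exact permutation p of 0.1 restates the lack of overlap.

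Plin2, the perilipin that coats droplets and a common marker of lipid-laden macrophages, was at 33.7, 37.0 and 30.2 CPM in the NTg libraries and 34.0, 40.3 and 33.4 CPM in the double mutant libraries. The groups overlapped, with a log2 fold change of 0.10 (SE 0.12) and a 95% interval of -0.18 to 0.37. Dgat1, which makes triglycerides, was at 22.1, 19.7 and 22.6 CPM in the NTg libraries and 35.1, 31.8 and 16.9 CPM in the double mutant libraries. Double mutant replicates 8 and 10 were above every NTg library and replicate 12 under every one. The log2 fold change of Dgat1 was 0.38 (SE 0.25), and it was 0.18 without replicate 8 and 0.64 without replicate 12. The order of its levels matched that of the neutrophil and monocyte markers in the libraries at both ends, highest in replicate 8 and lowest in replicate 12, and the part of RNA from these cells was not tested.

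Hilpda, a hypoxia-induced inhibitor of the lipase that Pnpla2 encodes, was at 3.30, 4.48 and 5.22 CPM in the NTg libraries and 3.04, 4.55 and 2.23 CPM in the double mutant libraries. Its groups overlapped, with a log2 fold change of -0.42 (SE 0.34), which was -0.73 without double mutant replicate 10 and -0.20 without replicate 12. The other 5 storage members, the droplet coat gene Plin3, the lipase gene Pnpla2, the fatty acid activating Acsl1, the triglyceride synthase Dgat2 and the fatty acid carrier Fabp5, had log2 fold changes from -0.03 in Plin3 to 0.20 in Dgat2.

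The wider pathway gave no called gene either. Of 77 further genes of sterol synthesis, efflux and storage, 64 were tested, and 0 were called in edgeR's test and 0 had an unadjusted p under 0.05. In the sterol and SREBP list 15 of 17 were tested, 10 positive and 5 negative, with a median log2 fold change of 0.04. Its smallest p-values belonged to the desaturase gene Fads2 at 0.66 (SE 0.41), the SCAP anchor gene Insig2 at 0.27 (SE 0.23) and the sterol enzyme scaffold gene Erg28 at 0.29 (SE 0.27).

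In the list of efflux genes, sterol carriers and LXR partners all 26 were tested, 15 positive and 11 negative, with a median of 0.02. Npc2, which carries cholesterol out of lysosomes, was at 230.0, 242 and 244 CPM in the NTg libraries and 210.4, 183 and 228 CPM in the double mutant libraries, without overlap. Its log2 fold change was -0.20 (SE 0.10). The next smallest p-values belonged to Arl4c, a small GTPase and LXR target, at -0.15 (SE 0.09), and Hcar2, a receptor for niacin and ketone bodies, at -0.19 (SE 0.12). In the list of other droplet, triglyceride and cholesteryl ester genes 23 of 34 were tested, 12 positive and 11 negative, with a median of 0.00. Gpat3, a glycerol phosphate acyltransferase, was at 0.725, 0.395 and 0.454 CPM in the NTg libraries and 2.60, 2.85 and 0.156 CPM in the double mutant libraries. Replicates 8 and 10, which held the most neutrophil and monocyte markers, were again the high ones, and the log2 fold change was 1.84 (SE 0.89). Fitm2, a droplet-forming protein, was at 0.55 (SE 0.30) and Acsl4, which activates arachidonate, at -0.18 (SE 0.10) on the same scale. Besides Npc2, the tested genes without overlap were Ncor1, Agpat2 and Soat2, all higher in the double mutants and named after their values were seen, so 4 of the 64 or 6.25% were without overlap, against 6.85% of all tested genes. Among the 13 genes with too few counts to be tested, the droplet coat gene Plin5 was also without overlap, from 2 to 32 counts. Its level was 0.322, 0.264 and 0.0908 CPM in the NTg libraries and 0.519, 2.17 and 1.14 CPM in the double mutant libraries. Replicates 10 and 12 also had the highest sums of 8 ependymal markers, at 121.5 and 49.2 CPM against 19.2 to 38.5 CPM in the others. The same held for 9 astrocyte markers, at 160 and 138 CPM against 102 to 122 CPM. The part of RNA from these cells was not tested. Lpin3, a phosphatidate phosphatase gene, was also without overlap, lower in the double mutants, at 0 to 3 counts in a library. NTg replicate 7 and double mutant replicate 10 had 1 count each, so only the scaling to library size separated them.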

How the data were processed

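Gene-level raw counts of fragments were deposited by the authors. Per the file headers they come from featureCounts 1.6.1 (strand setting 2, GENCODE vM25, mm10), which counted a fragment once for every gene it overlapped. Trimming with Trim Galore 0.4.1 and alignment with TopHat2 are named in the submitters' processing notes. Libraries were ribosome-depleted and stranded, per the labels' protocols. Another 6 sample columns of the table were left unused. Of 55401 identifiers, 55141 matched a symbol in a reference table of gene identifiers and 260 did not.

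Genes were filtered with filterByExpr (minimum count 10) and compared in R 4.3.3 by edgeR 4.0.16 (TMM, robust quasi-likelihood fit, double mutant minus NTg, Benjamini-Hochberg threshold 0.05) over all 16248 genes; the common biological coefficient of variation was 0.261. The steps were tested on simulated data. Standard errors are the fold change over the root of F. The 95% intervals use the t distribution and cover the spread between libraries. CPM use TMM-scaled library sizes, and levels between genes were divided by the exon length deposited by the authors. Exact permutation tests used log2(CPM + 0.5). DESeq2 1.42.0 and limma 3.58.1 were alternatives. Values in every library are printed for members that pass the threshold, the 3 members of smallest p in each of 5 role groups, members whose groups do not overlap, and 10 gatekeeper genes; Scd2 was added after its values were seen. The members and lists were chosen with earlier results of these data known. Replicates are separate pools of animals. Some genes of the wider lists are not reported here by name.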

Additional observations from a re-analysis of the deposited data

How the results depend on the processing

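The count of 0 called members held in all 13 alternatives: another normalization, no filter, DESeq2, limma voom, the combined alignments as a covariate, a block of neighbouring sample codes, each library left out in turn, and replicates 9 and 10 left out together, the last chosen after seeing the data. The count of called genes in the whole table was 0 in the main test, 6 with no filter, 7 with DESeq2, 71 with the block and 1 with replicates 9 and 10 left out. Leaving out each library in turn gave 0 to 2 called genes, the 2 without double mutant replicate 12. The cause was not tested. The median log2 fold change of the LXR and efflux members ran from -0.045 (without NTg replicate 7) to 0.049 (without NTg replicate 11) when a library was left out. The sign of the log2 fold change never changed in 20 of 42 members, and the share over all tested genes was not computed. Insig1, Ch25h, Nsdhl and Soat1 were among the 20. Their groups do not overlap, so leaving out libraries could not be expected to turn their sign.

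The groups share no replicate number, and the main test was unpaired. Pairing was tried only through neighbouring sample codes. A block of neighbouring codes, which the labels do not name as pairs, gave 7 of 42 members, and 1401 of 16248 genes, an unadjusted p under 0.05 (the members are Insig1, Mylip, Ch25h, Lpl, Scd2, Fasn and Soat1) and a smallest member adjusted p of 0.109 in edgeR, for Scd2; over the alternatives that smallest value ran from 0.109 to 0.99999. Counting limits Nr1h3 most, and the spread between libraries limits Scd1 and Scd2.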
